A study of Mus musculus with 54 samples.

Results

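Motor neurons of the oculomotor and trochlear nuclei (CN3/4) of mSOD mice were compared with those of wild-type littermates at P112 (P, postnatal day), the symptomatic age of this model. The libraries were taken by their labels for cell type, genotype and age, which gave 3 mSOD and 3 wild-type libraries, 6 of the 54 libraries of the series. The mSOD mice carry SOD1G93A, a mutant human SOD1 gene added to the intact mouse Sod1 gene, and the littermates carry no human SOD1, so an effect of the mutation and an effect of the added human protein cannot be told apart. Neurons were cut from tissue by laser capture microdissection, a laser method that takes chosen cells from a section, and bulk libraries of the captured cells were made with Smart-Seq2, a method for small amounts of polyadenylated RNA. The design text calls the libraries biological replicates. The labels name no animals and no number of captured cells, so the p-values below measure spread between libraries of a group. That spread was estimated jointly over all 54 libraries, not from the 6 compared alone. Replicate numbers only follow the order of deposit. All 6 libraries came from 1 sequencing project, and the CN3/4 libraries of the earlier age (P56, presymptomatic) came from another, so age and project cannot be told apart in these nuclei. The other nuclei of the series, used here only for contrast, are the lumbar spinal cord (SC), the hypoglossal nucleus of the tongue (CN12) and the vagal motor nucleus (CN10). At P112 they have 8, 6 and 6 libraries. In SC and in CN12, an mSOD library came from a project with no wild-type library of that nucleus and age. Genotype and project are thus partly tied in SC and CN12.

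Amyotrophic lateral sclerosis (ALS) kills motor neurons, and mutant SOD1 misfolds and causes an inherited form of it. Spinal and hypoglossal motor neurons degenerate in this disease, whereas the motor neurons that move the eyes are largely spared. The comparison asks what happens in the spared neurons while the animals are already ill. The oculomotor nucleus adjoins the Edinger-Westphal nucleus, whose peptidergic neurons make CART and urocortin, and lies near the serotonergic neurons of the dorsal raphe, so markers of both neighbours were read in every library.

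The 6 libraries held 2975957 to 5135315 counts, and each detected between 21617 and 23135 genes. The human SOD1 entry took 4.79%, 4.69% and 3.95% of all counts in the 3 mSOD libraries (mean 4.48% ± 0.462; SD, n = 3), and 0.0013%, 0.0011% and 0.0014% in the wild-type libraries. The genotype labels thus matched the transgene in every library, and the human entry was left out of all tests. Levels below are in CPM, the counts of a gene scaled to the library's total times its scaling factor (TMM). Mouse Sod1 stood at 840, 608 and 479 CPM in wild type and at 563, 541 and 447 CPM in mSOD. Its log2 change was -0.31 (95% interval -0.80 to 0.17). Log2 CPM correlated between libraries at 0.923 to 0.954 within wild type, 0.929 to 0.941 within mSOD and 0.928 to 0.953 between genotypes, so pairs of the same genotype were no closer than mixed pairs. On the first principal component (31.6% of the variance), wild-type replicate 3 and mSOD replicate 2 lay together at 54.7 and 53.3, while the other libraries lay between -51.4 and 11.8. The same pair had the highest shares of mitochondrial transcripts, 10.9% and 10.5%, against 5.64% to 8.01% in the others. The part of this axis in the results was not tested.

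The markers of these neurons were present in both genotypes. Chat, the enzyme that makes acetylcholine, was counted at 152, 136 and 143 CPM in wild type and at 146, 115 and 121 CPM in mSOD. Isl1, a transcription factor of motor neurons, was at 65.4, 69.1 and 71.5 CPM against 40.6, 78.7 and 62.9 CPM. The groups overlapped for both genes. Phox2a, which oculomotor and trochlear neurons need to form, had 1 count in the 6 libraries, and Mnx1, a factor of spinal and hypoglossal motor neurons that ocular motor neurons lack, had none.

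None of the 18493 mouse genes tested had an adjusted p under 0.05 (edgeR quasi-likelihood test with Benjamini-Hochberg adjustment), which is 0% called. At an unadjusted p under 0.05 there were 587 genes (3.17%), 282 higher (1.52%) and 305 lower (1.65%) in mSOD. DESeq2 called 4 genes and limma voom 1 on the same libraries, and the edgeR test with no filter on low counts called 32. Those 32 included Cartpt, Cck, Ucn, Scg2 and Xaf1, and also Tph2, Slc6a4 and Ddc, whose counts lay mostly in wild-type replicate 3, and 4 hemoglobin genes. Of the 4 DESeq2 calls, Npy, Gm34354 and Grp rested on 8, 9 and 5 counts in 1 wild-type library, and the other was Xaf1. The log2 CPM of the 2 genotypes did not overlap for 6.88% of genes, 619 higher (3.35%) and 653 lower (3.53%) in mSOD. The smallest adjusted p was 0.725, shared by Xaf1 and Scg2. The log2 change was above 0 for 9194 genes (49.7%) and below 0 for 9134, with a median of 0.

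The precision of this comparison depended on the level of the gene. The 95% interval of the change lay within 2-fold in both directions for 1498 of 1612 genes over 100 CPM (92.9%) and for 5333 of 7888 genes at 10 to 100 CPM (67.6%). It did so for only 219 of 6954 genes at 1 to 10 CPM (3.15%) and for none of the 2039 genes under 1 CPM. The intervals of the other 114 genes over 100 CPM reached past 2-fold, and 6 genes of that level had a log2 change over 1 in size. Over all genes the median standard error of the log2 change was 0.449, and 7050 genes (38.1%) had an interval within 2-fold.

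**Figure D1:**
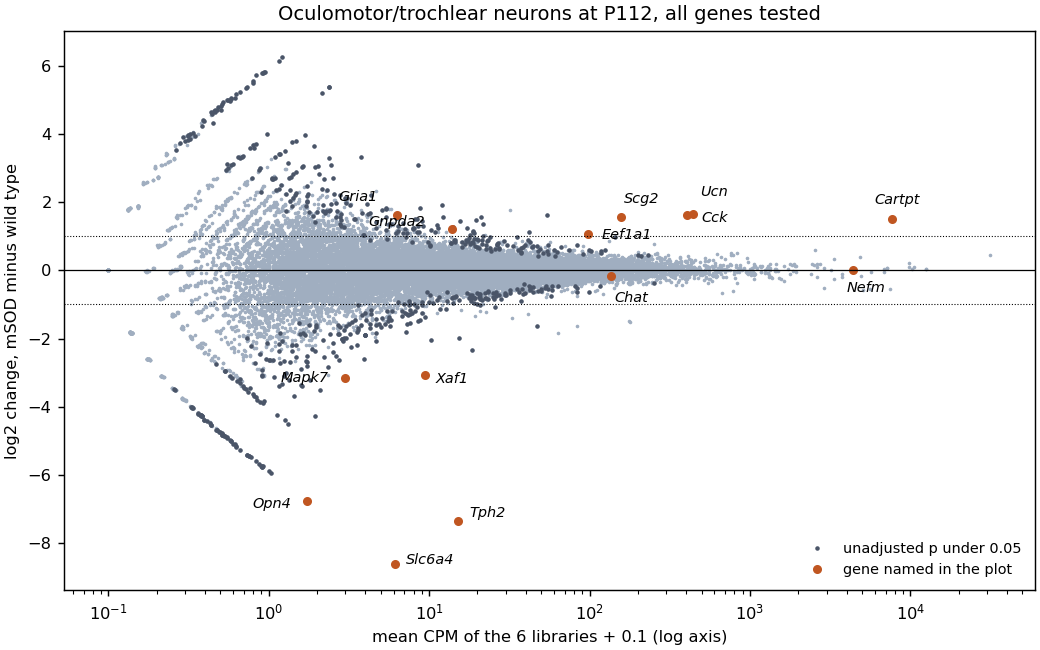
Log2 change of every tested gene (mSOD minus wild type, CN3/4, P112) against its mean CPM over the 6 libraries, on a log axis. Dark points have an unadjusted p under 0.05, orange points are named, and dotted lines mark a 2-fold change. The spread narrows with level, and Chat and Nefm lie close to 0, while Cartpt, Ucn, Cck and Scg2 lie above 1 among abundant genes.

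Genes that set CN3/4 neurons apart from other motor neurons gave no call between the genotypes. The 50 identity genes were chosen in P56 wild-type libraries, as the genes higher in CN3/4 than in each other nucleus with the smallest p-values, so no library of the present comparison chose them. None had an unadjusted p under 0.05, 13 had a log2 change above 0 and 37 below, and the median was -0.10, against 0 over all genes. The interval lay within 2-fold for 29 of them. Chrm1, the muscarinic M1 receptor and the first gene of the list, was at 78.7, 71.4 and 99.6 CPM in wild type and at 41.2, 96.4 and 79.8 CPM in mSOD, a log2 change of -0.20 (SE 0.41). Lhx4, a transcription factor of developing motor neurons, was at 156, 119 and 115 CPM against 106, 126 and 146 CPM (-0.04, SE 0.32). Both ranges overlapped. Krt25, Iqsec3, Itpr1 and Irx1 were the 4 identity genes whose genotypes did not overlap, all lower in mSOD, against 3.53% of all genes. Krt25 was at 63.2, 40.7 and 45.2 CPM against 35.5, 32.0 and 30.8 CPM, with a log2 change of -0.60 and an interval from -1.95 to 0.74. The remaining genes named by rank were Cox7a1 (-0.50), Esrrb (-0.28), Eya1 (-0.03), Pcdh9 (0.16), Iqsec3 (-0.10), Smug1 (-0.21) and Sim2 (-0.89) on the log2 scale.

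Transcripts of the cholinergic motor neuron list gave no call either. Of its 20 tested genes, 8 had a log2 change above 0 and 11 below, the median was -0.02, and the interval lay within 2-fold for 12. No gene had an unadjusted p under 0.05. The list summed to 13360, 12470 and 15090 CPM in wild type and to 11190, 17440 and 12590 CPM in mSOD. Nefm, a neurofilament gene whose protein fills large axons, stood at 4156, 3581 and 5423 CPM against 2759, 6735 and 3817 CPM (log2 change 0.02, interval -0.47 to 0.51). Prph, which encodes the filament protein peripherin, was at 332, 275 and 156 CPM against 196, 194 and 185 CPM (log2 change -0.41, interval -0.97 to 0.15), and all 3 mSOD values lay inside the wild-type range. Slc5a7, the choline transporter, was at 492, 648 and 843 CPM against 657, 1093 and 962 CPM (0.45, interval -0.27 to 1.18).

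Genes of the neighbouring Edinger-Westphal peptidergic neurons had higher values in mSOD, although none passed after adjustment. All 6 genes of that list had a log2 change above 0, and 3 of 6 had an unadjusted p under 0.05 against 1.52% of all genes. The genotypes did not overlap for 4 of 6, against 3.35% of all genes. This list, like all lists here, was written with earlier results of these data known. Neither these counts nor those at P56 below therefore test for an excess. Cartpt, which encodes the CART peptide, was counted at 5302, 1951 and 4728 CPM in wild type and at 7385, 6892 and 19880 CPM in mSOD. Every mSOD library lay above every wild-type library, and the log2 change was 1.51 (SE 0.94, unadjusted p 0.122).

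Cck, the precursor of cholecystokinin, was at 212, 150 and 228 CPM against 366, 314 and 1146 CPM, again without overlap (log2 change 1.63, SE 0.47, unadjusted p 0.00161, adjusted p 1, edgeR). Ucn, the precursor of urocortin, was at 325, 108 and 199 CPM against 507, 261 and 1233 CPM, and here mSOD replicate 2 lay below wild-type replicate 1 (1.66, SE 0.75). Postn, which encodes the matrix protein periostin, was at 11.6, 11.5 and 20.5 CPM against 34.0, 29.8 and 84.1 CPM without overlap (1.76, SE 0.94). Ghsr, the ghrelin receptor, was rare, at 0.493, 0 and 0.446 CPM against 0.629, 2.24 and 3.85 CPM (2.75, interval -0.10 to 5.59). Nucb2, the precursor of nesfatin, overlapped, at 4.19, 1.65 and 12.9 CPM against 6.60, 3.80 and 14.8 CPM (0.43).

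The 6 genes together summed to 5856, 2222 and 5189 CPM in wild type and to 8299, 7503 and 22360 CPM in mSOD, so mSOD replicate 3 was highest and wild-type replicate 2 lowest. Without mSOD replicate 3 the median log2 change of the list was 0.85 in place of 1.65. The Cck change was then 0.79. In such bulk libraries, more cells of a type and more RNA per cell cannot be told apart. In wild type at P112, Postn did not exceed 0.274 CPM and Cartpt did not exceed 503 CPM in the 3 other nuclei, and Ucn was at 0 to 23.1 CPM. Of the other markers, Cck was at 120 to 150 CPM in CN12 and at 79.9 to 136 CPM in SC, Nucb2 had a mean of 6.25 CPM in CN3/4 against 10.6 to 16.8 CPM in the other nuclei, and Ghsr had a mean of 0.313 CPM in CN3/4, 1.60 CPM in CN10 and 0 in CN12 and SC.

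The same genes had higher values in mSOD CN3/4 at P56 too, in libraries not shared with the P112 comparison. At P56 Cartpt was at 1157, 1514 and 1668 CPM in wild type and at 9459, 2562 and 7307 CPM in mSOD (log2 change 2.15). Cck was at 69.6, 70.1 and 90.3 CPM against 329, 116 and 397 CPM (1.87), and Ucn at 67.7, 67.3 and 89.7 CPM against 504, 99.9 and 451 CPM (2.23). The P56 genotypes overlapped for Postn, at 0.438, 6.29 and 18.3 CPM in wild type and 53.5, 10.2 and 82.1 CPM in mSOD, and for Ghsr, where the lowest mSOD value was 0.186 CPM and the highest wild-type value 0.421 CPM, and did not for the other genes of the list. The P56 median of the list was 2.18 with 6 of 6 genes above 0, and no gene passed after adjustment at P56 (edgeR, 0% called).

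Scg2, the precursor of secretoneurin and a cargo of peptide vesicles, had the smallest p of the genes higher in mSOD. It was at 53.3, 41.8 and 142 CPM in wild type and at 200, 141 and 357 CPM in mSOD. mSOD replicate 2 lay just below wild-type replicate 3, so the genotypes touched, and the log2 change was 1.56 (SE 0.35, unadjusted p 7.8e-05, adjusted p 0.725, edgeR). At P56 the Scg2 change was 1.60 (SE 0.35), and at P112 it was 0.35 in SC, 0.22 in CN12 and -0.17 in CN10. Without wild-type replicate 3 the Scg2 change was 2.29 and its adjusted p 0.00543, and limma voom gave an adjusted p of 0.000445. With each of the other 5 libraries left out the Scg2 change was 1.11 to 1.82, the lowest without mSOD replicate 3, and did not pass. Vgf, another peptide precursor of neurons and a member of the resilience list below, was at 83.7, 56.2 and 142 CPM against 114, 152 and 242 CPM (0.85, SE 0.49; 1.20 at P56).

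Wild-type replicate 3 carried transcripts of serotonergic neurons. Tph2, the enzyme that starts serotonin synthesis in the brain, stood at 89.8 CPM there (403 counts), and no other library had more than 2 counts. Slc6a4, the serotonin transporter, was at 36.1 CPM there (162 counts) and had no count in the other 5 libraries. Ddc, the next enzyme of the pathway, was at 67.7 CPM there and at 1.41 to 9.39 CPM elsewhere, and Maob, which breaks amines down, was at 20.1 CPM there and at 0 to 4.25 CPM elsewhere. Slc18a2, the vesicular monoamine transporter, was at 38.5 CPM there and at 5.92 to 22.4 CPM elsewhere. Gata3 was at 6.46 CPM there and at 0 to 1.26 CPM elsewhere. Fev, a factor that defines serotonergic neurons, was at 2.67 CPM there, at 1.12 CPM in mSOD replicate 2 and at most 0.235 CPM in the others.

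The 14 serotonergic genes summed to 15.1, 18.8 and 283 CPM in wild type and to 24.5, 44.5 and 24.0 CPM in mSOD. All 8 tested genes had a log2 change below 0, with a median of -1.44, and 3 had an unadjusted p under 0.05, against 1.65% of all genes. Without wild-type replicate 3 the median was 0.70, and the Tph2 change went from -7.34 to 0.30. In that replicate Th, the first enzyme of dopamine synthesis, was at 11.4 CPM (0.629 to 5.58 CPM elsewhere). The dopamine transporter Slc6a3 was at 0.669 CPM there, the level of 3 counts, and at 0 elsewhere. Aldh1a1 was also highest there, at 50.4 CPM. Other dopaminergic genes were not: Drd2 was at 0 there against 2.585 CPM in wild-type replicate 2, and Nr4a2 at 0.446 against 1.645 CPM. Pitx3 was at 0 against 0.235 CPM in that same library. Foxa2 was at 2.005 CPM against 10.2 CPM in mSOD replicate 3, and Slc10a4 at 311.3 CPM against 398.5 CPM in mSOD replicate 2. Of the 9 dopaminergic genes tested, which include Ddc and Slc18a2, 2 were above 0 and 7 below, with a median of -0.39. Over all genes, 5 had 20 counts or more in wild-type replicate 3 and at most 3 in any other library; mSOD replicate 3 had 12 such genes, mSOD replicate 2 had 7, wild-type replicate 1 had 2 and the other libraries had none.

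**Figure D2:**
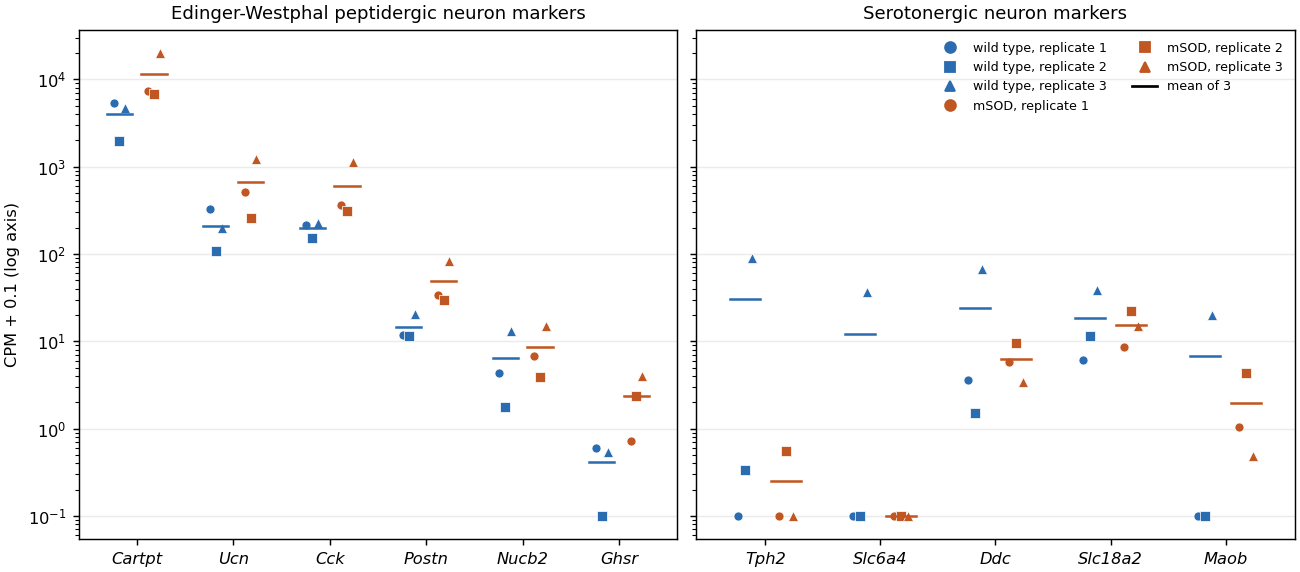
CPM of the 6 Edinger-Westphal markers (left) and 5 serotonergic markers (right) in each of the 6 libraries, with 0.1 added and on a log axis. Blue marks wild type, orange mSOD, symbols the replicates and bars the mean of 3. The orange symbols of Cartpt, Cck and Postn lie above all blue ones, and Tph2 and Slc6a4 stand high in wild-type replicate 3 only.

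Markers of glia, vessels and other neurons were read in the same way. Of 15 microglial genes tested, 8 were above 0 and 7 below (median 0.20), 2 had an unadjusted p under 0.05 on the higher side (1.52% of all genes), and the list summed to 57.7, 65.8 and 64.4 CPM in wild type and to 68.2, 54.8 and 74.3 CPM in mSOD. P2ry12, a receptor of resting microglia, was at 0 in wild type and at 0.314, 3.35 and 1.35 CPM in mSOD, and Trem2 was at 0 against 0.314, 0.224 and 1.92 CPM. Both rest on few counts, and Tmem119 and C1qa lay the other way. Cx3cr1 did not exceed 2.35 CPM in any library.

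The 14 astrocytic genes had 7 changes above 0 and 7 below (median -0.02). They summed to 1417, 1425 and 1148 CPM in wild type and to 1296, 1168 and 977 CPM in mSOD, mostly through Aldoc and S100b, which neurons also express. Gfap was at 0 in 5 libraries and at 0.769 CPM in mSOD replicate 3. The 14 oligodendrocyte genes had 5 above 0 and 9 below (median -0.09). They summed to 172, 317 and 431 CPM against 298, 294 and 283 CPM, with the lowest and highest libraries both wild type. Of 8 endothelial and pericyte genes tested, 5 were above 0 and 3 below (median 0.10). Of 9 GABAergic and glycinergic genes, 5 were above 0 and 4 below (median 0.13), and Gad1 ranged from 0 to 16.04 CPM in wild type and from 5.19 to 21.1 CPM in mSOD. Of 4 glutamatergic genes tested, 3 were above 0 and none below (median 1.14), Slc17a7 had no count, and Slc17a6 was at 19.99, 22.6 and 61.7 CPM against 34.0, 47.4 and 30.2 CPM.

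By rule, the 10 genes per direction with the smallest p among those whose genotypes did not overlap are named, although none passed after adjustment. Gnpda2, a glucosamine-6-phosphate deaminase, was at 7.65, 9.64 and 7.58 CPM in wild type and at 20.4, 15.0 and 22.1 CPM in mSOD (log2 change 1.21, SE 0.33, unadjusted p 0.00066, adjusted p 1, edgeR). N4bp2l2 was at 18.8, 18.1 and 34.3 CPM against 39.9, 38.5 and 60.8 CPM (0.97, SE 0.28). Cck is given above. Scml2 had no wild-type count and was at 2.20, 1.57 and 0.385 CPM in mSOD (7, 7 and 2 counts). Its mSOD mean was at least 1.96-fold higher against a floor of 3 counts per library. Gm35755 was likewise at least 2.98-fold higher. Gm42436 had a log2 change of 3.77 (SE 1.34), with 0, 0 and 2 counts in wild type and 4, 3 and 28 in mSOD. The other 4 genes were copies of Eef1a1, described below.

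Among the genes lower in mSOD, Xaf1, which encodes a binding partner of the apoptosis inhibitor XIAP and is induced by interferon, was at 26.9, 13.2 and 9.80 CPM in wild type and at 1.26, 2.91 and 1.54 CPM in mSOD. The lowest wild-type value was above the highest mSOD value, and the log2 change was -3.08 (SE 0.70, unadjusted p 4.3e-05, adjusted p 0.725, edgeR). DESeq2 gave Xaf1 an adjusted p of 0.00336. At P56 the Xaf1 change was -1.46. Mapk7, the kinase ERK5, was at 4.94, 5.64 and 5.13 CPM against 0.943, 0.224 and 0.577 CPM (-3.17, SE 0.83, unadjusted p 0.000148, adjusted p 0.911, edgeR), with a P56 change of -0.45. Atxn3, a deubiquitinase whose expanded form causes an ataxia, was at 11.4, 8.46 and 12.3 CPM against 4.09, 5.37 and 3.65 CPM (-1.28, SE 0.38; 0.09 at P56).

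The remaining named genes were rare. Opn4, the light-sensing protein melanopsin, was at 1.23, 5.88 and 2.67 CPM in wild type and had no count in mSOD, at least 4.46-fold lower. Bmpr1b, a receptor for bone morphogenetic proteins, was at least 2.10-fold lower, and Gm7970, Gm35725 and Adgrl4 were at least 1.84-fold, 2.22-fold and 2.18-fold lower, each with no mSOD count. These bounds use the wild-type mean. Bmpr1b, Gm7970, Gm35725 and Adgrl4 each had a wild-type library with only 1 or 2 counts, and Opn4 had 5, 25 and 12 counts. Gm10499 (-3.38, SE 1.05) and Ppef2 (-3.40, SE 1.11) were at or below 3.79 CPM in every library.

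Eef1a1 encodes elongation factor 1 alpha 1, which brings aminoacyl-tRNA to the ribosome, and processed pseudogenes copied from its messenger RNA lie across the mouse genome. Eef1a1 was at 60.7, 54.1 and 73.1 CPM in wild type and at 161, 75.4 and 158 CPM in mSOD, without overlap (log2 change 1.07, SE 0.32, unadjusted p 0.00177, adjusted p 1, edgeR). The annotation holds 14 processed pseudogenes at least 90% identical to its coding sequence of 1389 bases over 400 bases or more, and all 14 were tested. All 14 had a log2 change above 0, 12 with an unadjusted p under 0.05 (1.52% of all genes) and 9 without overlap (3.35%). The median was 1.17, with a range of 0.53 to 1.55. These counts include AC124512.1, Gm5822, AC122119.2 and AC133509.1, which were picked by rank for a small p without overlap. The counts therefore do not test for an excess. Nor are the copies independent measurements: at 92.0% to 97.3% identity, reads of one can be counted for another. Of the 14, 9 share at least 1 stretch of 100 identical bases with the coding sequence. How the authors counted reads that match several places is not given in the sources used here, so the split of counts among these genes is uncertain, and a change of Eef1a1 cannot be told apart from a change of its copies. Leaving out 1 library at a time put the median of the copies between 0.99 and 1.46.

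To show how alike these sequences are, bases 247 to 336 of the Eef1a1 coding sequence (chromosome 9 of GRCm38, GENCODE) are printed 5′ to 3′ on the coding strand with the same stretch of 3 copies on chromosomes 2, 16 and 19. Capitals mark bases that differ from Eef1a1.
Eef1a1: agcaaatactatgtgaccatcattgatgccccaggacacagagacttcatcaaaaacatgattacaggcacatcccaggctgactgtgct
Gm13456: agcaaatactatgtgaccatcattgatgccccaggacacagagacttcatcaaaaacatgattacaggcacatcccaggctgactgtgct
Gm6767: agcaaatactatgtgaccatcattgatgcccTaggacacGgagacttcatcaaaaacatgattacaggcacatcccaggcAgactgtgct
Gm5822: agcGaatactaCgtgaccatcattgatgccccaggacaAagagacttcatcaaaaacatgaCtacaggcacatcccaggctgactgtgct

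The Gm13456 stretch has 0 differences in these 90 bases, Gm6767 has 3 and Gm5822 has 4. Gm13456 was at 28.1, 25.6 and 24.96 CPM in wild type and at 71.1, 31.8 and 68.9 CPM in mSOD (log2 change 1.12). Gm5822 was at 3.45, 2.59 and 3.34 CPM against 12.9, 4.70 and 9.81 CPM (1.52, SE 0.42), and it is 1 of the 4 copies named by rank, with AC124512.1 (1.44), AC122119.2 (1.51) and AC133509.1 (1.55). In all of them mSOD replicates 1 and 3 lay far above wild type and mSOD replicate 2 only a little. For Eef1a1 itself the change was 0.59 in CN3/4 at P56, and at P112 it was 1.04 in SC, 1.13 in CN12 and -0.06 in CN10.

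**Figure D3:**
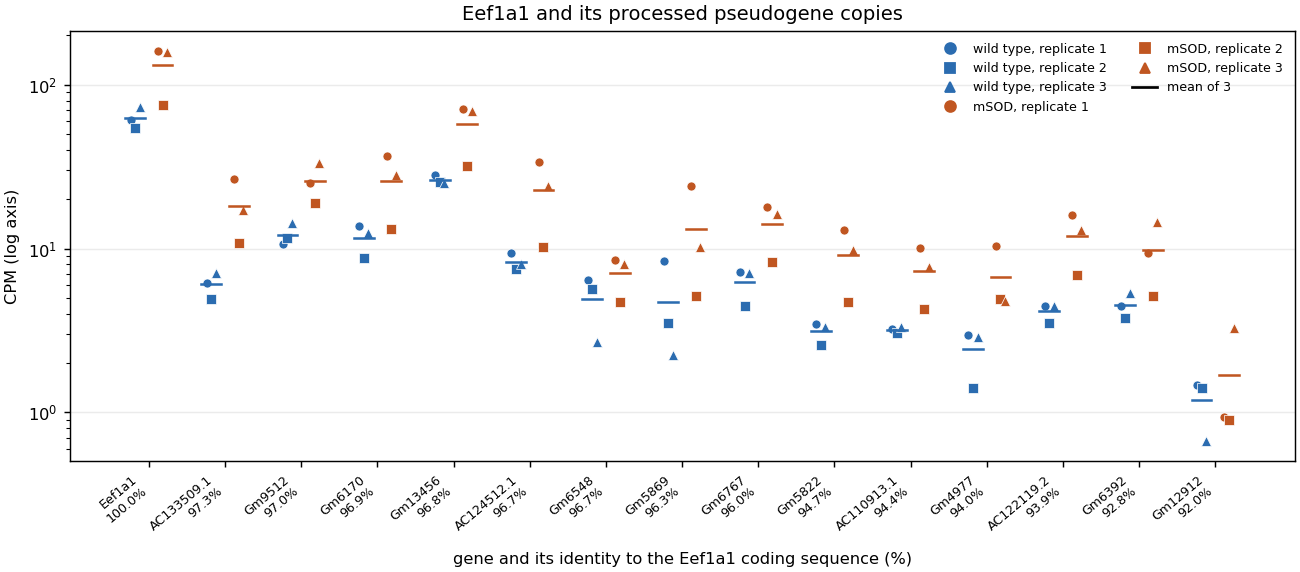
CPM of Eef1a1 and its 14 processed pseudogenes in the 6 libraries, on a log axis, ordered by identity to the Eef1a1 coding sequence (percent under each name). Blue marks wild type, orange mSOD and bars the mean of 3. For most of the genes mSOD replicates 1 and 3 lie at the top and mSOD replicate 2 lies close to wild type.

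Proteins that misfold engage the unfolded protein response of the endoplasmic reticulum, cytosolic chaperones and the proteasome, and each list was read for members passing the test. None passed in any of them. Of 20 unfolded protein response genes, 17 had a log2 change above 0 and 3 below, with a median of 0.28, and the interval lay within 2-fold for 12. Hspa5, the main chaperone of the endoplasmic reticulum, was at 145, 180 and 359 CPM in wild type and at 290, 355 and 243 CPM in mSOD (0.38, interval -0.13 to 0.88). Wild-type replicate 3 was the highest library, and the genotypes overlapped. Hsp90b1 was at 114, 153 and 197 CPM against 160, 178 and 184 CPM (0.17), Dnajb9 at 35.5, 50.1 and 58.6 CPM against 52.2, 96.6 and 71.0 CPM (0.61), and Trib3 had counts in mSOD replicate 1 only. At P56 the same list had 9 genes above 0 and a median of -0.05. Ddit3, a factor of the lethal branch, was at 28.4, 27.5 and 9.14 CPM against 29.2, 15.7 and 23.8 CPM (0.08).

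Of 17 cytosolic chaperone genes, 12 were above 0 and 5 below (median 0.06), and 14 had an interval within 2-fold. Hspa8, which encodes the constitutive chaperone HSC70, was at 2733, 2522 and 2322 CPM in wild type and at 3138, 2658 and 2395 CPM in mSOD (0.11, interval -0.24 to 0.46). Of 26 proteasome genes, 5 were above 0 and 21 below (median -0.12), and all 26 had an interval within 2-fold. Psmb5, a catalytic subunit, was at 280, 244 and 144 CPM against 224, 131 and 172 CPM (-0.34, interval -0.84 to 0.16). Of 21 autophagy and lysosome genes, 9 were above 0 and 12 below (median -0.04), and Sqstm1, the receptor p62, was at 532, 531 and 543 CPM against 548, 546 and 402 CPM (-0.10, interval -0.47 to 0.26). The proteasome list leaned below 0 at P56 too, with 5 genes above 0 and a median of -0.18.

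Energy and redox genes had narrow intervals. All 33 nuclear genes of oxidative phosphorylation had an interval within 2-fold, 11 above 0 and 22 below (median -0.11). Ndufa4, the gene with the highest level per length in that list, was at 1303, 1174 and 1326 CPM in wild type and at 991, 1545 and 1363.3 CPM in mSOD (0.04). Cox4i1, a subunit of cytochrome oxidase, was at 1232, 1008 and 577 CPM against 896, 682 and 614 CPM (-0.36, interval -0.92 to 0.20), the lowest library being wild-type replicate 3. Of 23 oxidative stress genes, 5 were above 0 and 18 below (median -0.09), with 17 intervals within 2-fold. Hmox1 and Nqo1, targets of the stress factor NRF2, did not exceed 3.29 and 5.57 CPM in any library. Neither list had a gene at an unadjusted p under 0.05.

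The axon and synapse lists gave no gene at an unadjusted p under 0.05. All 24 genes of axonal transport and microtubules had an interval within 2-fold, 11 above 0 and 13 below (median -0.04), and Stmn2, a microtubule regulator, was at 690, 681 and 743 CPM in wild type and at 717, 752 and 668 CPM in mSOD (0.02, interval -0.34 to 0.37). Of 26 presynaptic genes, 13 were above 0 and 13 below (median 0.00), with 22 intervals within 2-fold. Of 26 genes linked to ALS by inherited mutation, 11 were above 0 and 15 below (median -0.02), with 20 intervals within 2-fold. Tardbp, which encodes TDP-43, was at 67.4, 101 and 161 CPM against 109, 159 and 75.6 CPM (0.06, interval -0.44 to 0.55).

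Excitability was read through channels, receptors and calcium handling. Of 26 ion channel genes, 15 were above 0 and 11 below (median 0.03), and none had an unadjusted p under 0.05. Of 26 transmitter receptor genes, 15 were above 0 and 11 below (median 0.16), and 2 had an unadjusted p under 0.05, both on the higher side, against 1.52% of all genes. Gria1, the GluA1 subunit of AMPA glutamate receptors, was at 1.97, 3.06 and 4.01 CPM in wild type and at 9.43, 5.59 and 12.9 CPM in mSOD, without overlap (1.61, SE 0.49, unadjusted p 0.00172, adjusted p 1, edgeR). Gria2, the subunit that keeps calcium out of these receptors, was at 281, 315 and 626 CPM against 327, 517 and 426 CPM (0.06, interval -0.48 to 0.59). The Gria1 change was -0.40 at P56. Of 24 calcium genes, 9 were above 0 and 15 below (median -0.10). Only 1 had an unadjusted p under 0.05, on the lower side (1.65% of all genes). This gene, Ryr1, had no mSOD count and at most 2.23 CPM in wild type.

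Genes proposed from earlier work to mark or protect ocular motor neurons did not pass the test. Of 16 tested, 9 were above 0 and 7 below (median 0.06), and the interval lay within 2-fold for 5. Cd63, a protein of late endosomes and exosomes, was at 15.1, 7.05 and 15.8 CPM in wild type. In mSOD it was at 20.8, 20.4 and 33.9 CPM (0.99, interval -0.04 to 2.02, and 1.36 at P56). It was the only gene of the list without overlap, against 3.35% of all genes without overlap on the higher side. Gal, the precursor of galanin, was at 27.9, 87.2 and 58.8 CPM against 33.0, 19.2 and 19.4 CPM (-1.29, interval -2.81 to 0.22). Calb2, the calcium buffer calretinin, was at 22.2, 28.0 and 36.3 CPM against 84.0, 43.2 and 25.007 CPM (0.80), and Pvalb, the buffer parvalbumin, at 767, 652 and 440 CPM against 435, 539 and 465 CPM (-0.37). En1, a transcription factor, was at 21.5, 21.2 and 28.3 CPM against 21.4, 26.2 and 26.7 CPM (0.07). Igf1r (0.19), Syt1 (-0.01), Syt13 (-0.28), Akap12 (0.13), Pcp4 (0.11), Slc1a2 (-0.05), Calb1 (-1.66) and Cdkn1a (-0.42) gave the other changes; Igf2 had no count and Gdnf counts in mSOD replicate 3 only, so neither was tested.

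Genes that motor neurons switch on when their axons are cut gave no call. Of 26 nerve injury genes, 13 were above 0 and 12 below (median 0.00), 1 had an unadjusted p under 0.05 on the higher side (1.52% of all genes) and 2 on the lower side (1.65%). Atf3, a stress-induced transcription factor, was at 0.247, 2.12 and 0.223 CPM in wild type and at 0.943, 0.224 and 3.08 CPM in mSOD. Sprr1a, which promotes axon outgrowth, had 1 count in the 6 libraries. Gap43, a protein of growing axons, was at 22.7, 31.3 and 38.8 CPM against 49.99, 25.05 and 82.1 CPM (0.76, interval -0.09 to 1.62). Chl1, a cell adhesion molecule, was at 1.48, 11.5 and 36.1 CPM against 3.46, 5.37 and 3.08 CPM (-2.04, SE 0.82), with the wild-type mean carried by replicate 3. Itga7, an integrin subunit, was at 9.62, 8.93 and 6.02 CPM against 6.60, 3.36 and 3.27 CPM (-0.93, SE 0.46). Vip had no wild-type count and was at 0.314, 4.03 and 2.31 CPM in mSOD, with a mean at least 3.15-fold higher.

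Of 16 apoptosis genes, 7 were above 0 and 9 below (median -0.10), and 2 had an unadjusted p under 0.05, against 3.17% of all genes. Apaf1, the scaffold of the apoptosome, was at 6.91, 5.64 and 3.57 CPM in wild type and at 1.26, 1.12 and 2.50 CPM in mSOD (-1.68, SE 0.69), and Bcl2, which opposes apoptosis, was at 7.90, 14.6 and 14.04 CPM against 21.4, 26.6 and 15.2 CPM (0.79, SE 0.36). Neither overlapped, and their adjusted p was 1 (edgeR). Of 22 cholesterol synthesis genes, 14 were above 0 and 8 below (median 0.13), and 3 had an unadjusted p under 0.05, against 3.17% of all genes. Idi1, an isomerase of the pathway, was at 23.2, 30.6 and 34.8 CPM against 47.2, 63.5 and 38.7 CPM without overlap (0.75, SE 0.25), and Sc5d (0.55, SE 0.27) and Mvd (-0.99, SE 0.46) overlapped.

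Of 16 immediate early genes, 9 were above 0 and 7 below (median 0.21), and only 1 interval lay within 2-fold. Fos was at 8.39, 17.4 and 6.02 CPM in wild type and at 27.0, 14.3 and 52.5 CPM in mSOD (1.57, SE 0.61), with mSOD replicate 2 inside the wild-type range. Of 16 interferon and antigen presentation genes, 6 were above 0 and 9 below (median -0.06), and Tapbp, which helps load antigen, was at 29.1, 25.6 and 27.4 CPM against 15.7, 10.7 and 25.007 CPM (-0.67, SE 0.33). Of 18 clock genes, 7 were above 0 and 11 below (median -0.14).

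**Figure D4:**
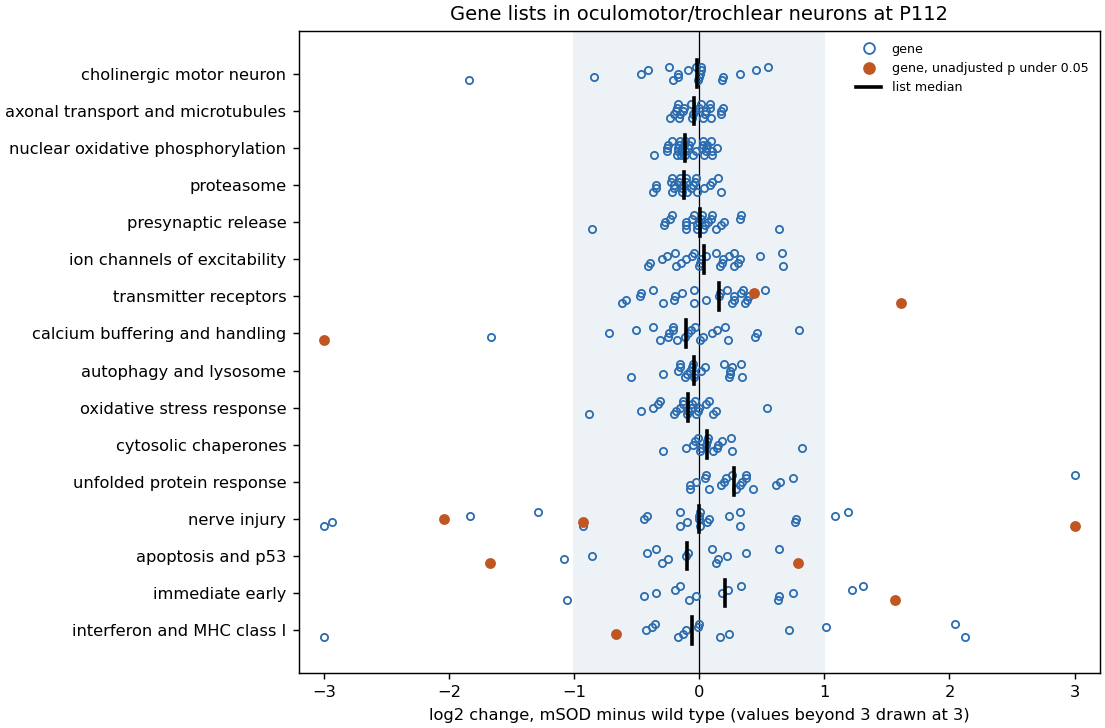
Log2 change (mSOD minus wild type, CN3/4, P112) of each tested gene in 16 of the lists, with values beyond 3 drawn at 3. Open circles are genes, filled orange circles have an unadjusted p under 0.05, black bars are list medians and the shaded band is 2-fold in both directions. Transport, oxidative phosphorylation and proteasome genes lie inside the band with medians of -0.04, -0.11 and -0.12, while nerve injury and immediate early genes spread beyond it.

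The genes that passed in the vulnerable motor neurons at the same age were then read in CN3/4. In SC, 87 genes (0.47%) passed at an adjusted p under 0.05 (edgeR), 36 higher and 51 lower in mSOD, and in CN12 13 genes (0.0703%), all higher. The changes in those nuclei are of genes selected for passing there, so their sizes are not independent of that selection. Of the 36 genes higher in SC, 18 had a log2 change above 0 in CN3/4, and the median change was 1.99 in SC and 0.03 in CN3/4. Of the 51 lower in SC, 28 were below 0 in CN3/4, with medians of -1.59 and -0.05. The 95% interval in CN3/4 excluded the SC estimate for 33 of 33 higher and 50 of 50 lower genes that had an interval. That count takes the SC estimates, of genes selected there, as free of error. The difference itself passed for 0 of the 36 higher and 1 of the 51 lower genes. Of the 13 genes higher in CN12, 5 were above 0 in CN3/4, with medians of 5.10 and -0.10. The interval excluded the CN12 estimate for 11 of 11, and the difference itself passed for 4 of the 13.

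**Figure D5:**
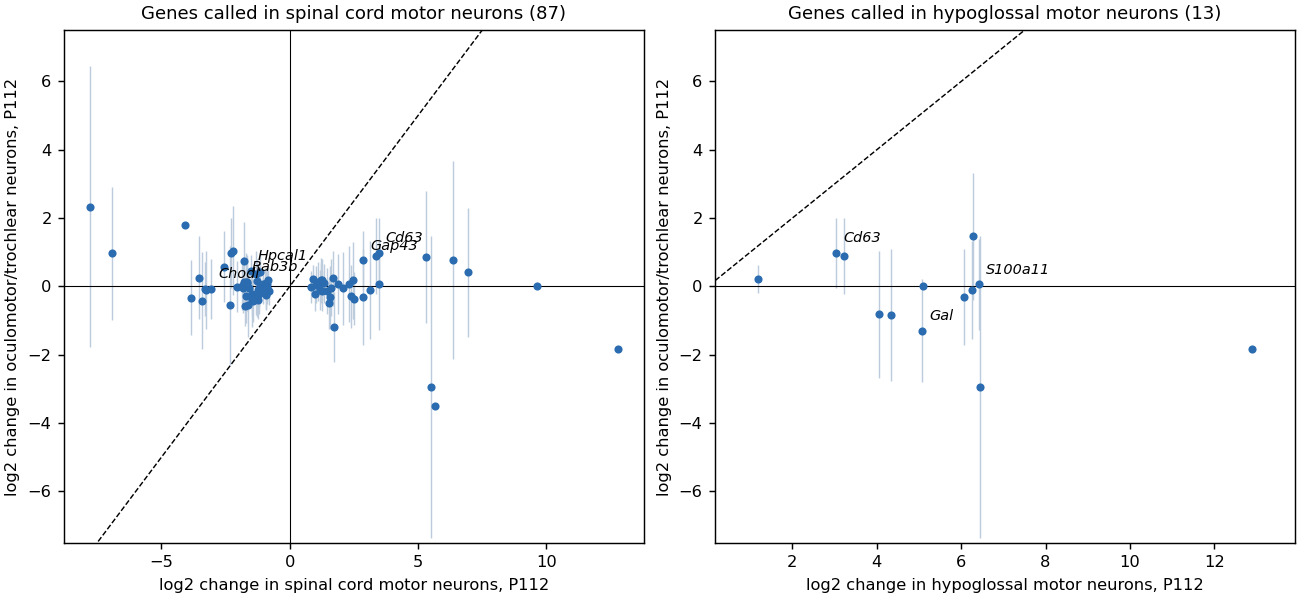
Log2 change in CN3/4 (vertical) against that in SC (left, 87 genes) or CN12 (right, 13 genes) for the genes that passed there at P112, with 95% intervals in CN3/4 where these exist and a dashed line of equal change. Intervals beyond the axis are drawn in part. Most points lie along 0 in CN3/4, away from the line.

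The difference of the genotype effect between nuclei was tested directly. Against SC, 1 gene passed (0.00541%), and 1289 genes had an unadjusted p under 0.05 (6.97%). Hpcal1, a neuronal calcium sensor, was at 24.9, 19.98 and 29.0 CPM in wild type and at 43.1, 19.0 and 40.01 CPM in mSOD in CN3/4, a log2 change of 0.46 against -1.52 in SC (difference 1.98, SE 0.32, adjusted p 0.00217, edgeR). In a fit of the 4 groups alone the Hpcal1 difference had an adjusted p of 0.237. Rab3b, a vesicle GTPase, was at 98.9, 140 and 106 CPM against 135, 131 and 111.8 CPM in CN3/4 (0.13, against -1.78 in SC), and the difference had an adjusted p of 0.0732. Chodl, a marker of fast motor neurons, was at 81.2, 133 and 245 CPM against 133, 164 and 139 CPM (-0.08, against -3.06 in SC; adjusted p of the difference 0.106). Rgs10 and Tubb6 also had an adjusted p of 0.106, with CN3/4 changes of -0.35 and -1.17 against 2.52 and 1.74 in SC. Other genes that passed in SC had these log2 changes in CN3/4 and SC: Dkk3 -0.04 against -1.59, Gap43 0.76 against 2.84, Cd63 0.99 against 3.46 and its pseudogene Cd63-ps 0.89 against 3.35.

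Against CN12, 4 genes passed (0.0216%), and 659 had an unadjusted p under 0.05 (3.56%). S100a11, a calcium-binding protein, was at 2.96, 1.41 and 3.34 CPM in wild type and at 2.52, 1.57 and 3.85 CPM in mSOD in CN3/4 (0.06), against 6.43 in CN12 (difference -6.36, SE 1.02, adjusted p 0.000711, edgeR). Gm12854 (difference -6.38, adjusted p 0.00109) and Gm7665 (-6.36, adjusted p 0.0018) passed with it. Gal changed by -1.29 in CN3/4 and by 5.07 in CN12 (difference -6.36, SE 1.08, adjusted p 0.0134, edgeR). The Gal call was lost with no project term (adjusted p 0.109), with the 4 groups alone (0.0836) and in 3 of the 6 fits that left out a library (up to 0.11), and the Gm7665 call without wild-type replicate 3 (0.0642). Against CN10 no gene passed (646 with an unadjusted p under 0.05, 3.49%), nor did any differ between P112 and P56 in CN3/4 (433, 2.34%). The smallest p-values of the P56 difference were those of Tm4sf1, Cryzl2, Plekho2, Gm32913, Zfp982 and Gm12031, and of the CN10 difference those of Vip, Gm45718, Lypd6b, Ccdc88c, Cped1 and Fmo1, all with an adjusted p of 1 (edgeR). CN10 itself had no gene passing at P112 (edgeR, 0% called). The 10 genes with the highest mean level per length (RPKM) in the 6 CN3/4 libraries, which include mt-Co3, mt-Atp6 and Rn7s6, had log2 changes of -0.56 to 0.44, none with an unadjusted p under 0.05.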

How the data were processed

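Smart-Seq2 libraries of laser-captured motor neurons were read from the deposited table of counts per gene, which the authors made with STAR 2.7.0e on mm39 (GRCm39), per the submitters' processing notes. The counting program, annotation, use of strand and treatment of reads with several matches are not given in the sources used here. The deposited RPKM table of the authors (scaled by gene length and depth) was used only to compare levels between genes. Groups came from the labels.

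Counts of all 54 libraries were fitted in R 4.3.3 with edgeR 4.0.16 (TMM scaling, filterByExpr, robust quasi-likelihood F test), with a mean for each of 16 groups and a term for sequencing project. Benjamini-Hochberg adjustment ran over 18493 of 55354 mouse genes. The human SOD1 entry stayed in library sizes and was not tested. CPM values are counts scaled to the library's total times its TMM factor. Genotypes were called not overlapping on log2 CPM with a prior count of 2. Log2 changes are mSOD minus wild type. Standard errors and 95% intervals came from the fit's working weights and moderated variance, in place of the planned ratio of the change to the root of F, which is undefined near no change. Depth was 2975957 to 5135315 counts per library. With the TMM factors, 3 counts, the floor used for folds against a group with none, correspond to 0.577 to 0.943 CPM. Floors cover counting error only.

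Alternatives were DESeq2 1.42.0, limma 3.58.1 voom with sample weights, other filters, RLE size factors, other sets of libraries, no project term and leaving out each library. The edgeR fit was also run on counts simulated from its own means and spread. Such counts cannot show whether the model suits these libraries. Gene symbols, coding sequences and copies (blastn 2.17.0) came from GENCODE on GRCm38, a different build, so no coordinates are printed.

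The text names the 10 genes per direction with the smallest p among those not overlapping, up to 3 per direction for each difference between groups, 5 per direction among genes called in SC or CN12, the 10 highest by RPKM, 10 identity genes and, per list, genes with the smallest p or the highest RPKM. A few others (Eef1a1, Scg2, Atf3, Sprr1a, Apaf1, Tardbp, Ddit3, Prph, Sqstm1) were chosen after their values were seen. The members and lists were chosen with earlier results of these data known. A few genes that this rule names are not reported here.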

Additional observations from a re-analysis of the deposited data

Results flagged for a closer look

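In 5 cases the genotype effect in CN3/4 at P112 differed from that in another nucleus by a test of the difference itself, and 3 of these calls were lost under some alternative: Hpcal1 in a fit of the 4 groups alone (adjusted p 0.237, edgeR), Gal with no project term (0.109) and Gm7665 without wild-type replicate 3 (0.0642). For Hpcal1, the log2 change in CN3/4 minus that in SC was 1.98. For Gal, the log2 change in CN3/4 minus that in CN12 was -6.36. The same difference from CN12 was -6.36 for S100a11, -6.36 for Gm7665 and -6.38 for Gm12854. Gm12854 and Gm7665 are annotated as processed pseudogenes, and their share of reads from related genes was not tested.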

How the results depend on the processing

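The count of genes with an adjusted p under 0.05 was 0 in the reported fit, 32 with no filter on low counts, 4 with DESeq2 and 1 with limma voom, and 0 to 1 when libraries were left out in turn (1 without wild-type replicate 3). The 587 genes at an unadjusted p under 0.05 became 349 with the 6 libraries alone, 389 with the 12 CN3/4 libraries, 327 with at least 10 counts in 3 of the 6 libraries, 1.3e+03 (rounded) with no filter, 1488 with limma voom and 498 to 1063 with libraries left out. With no filter, genes differing from CN3/4 at P56, SC, CN12 and CN10 numbered 21, 105, 41 and 17, and with DESeq2 1, 25, 22 and 1. The count against SC was 2 with no project term, 0 with the 4 groups alone and 1 to 3 with libraries left out. Hpcal1 then had an adjusted p of 0.237 (4 groups alone). Gal lost its call with no project term (0.109), with the 4 groups alone (0.0836) and when mSOD replicate 2, mSOD replicate 3 or the second wild-type library was left out, and Gm7665 without wild-type replicate 3 (0.0642). The cause was not tested. Limma voom put the cholinergic median at -0.078 and the serotonergic median at 0.34. With libraries left out, medians ranged from -0.12 to 0 (cholinergic), -0.14 to 0.034 (nerve injury), 0.092 to 0.38 (unfolded protein response), -2.49 to 0.70 (serotonergic) and 0.85 to 1.98 (Edinger-Westphal). The Tph2 change ranged from -9.94 to 0.30, the latter without wild-type replicate 3. Of 435 list medians recomputed, 400 moved by less than their spread. Of 320 values for 23 named genes, 306 kept direction and side of the threshold, 13 gained a call and 1 changed sign. Most of these genes were named for not overlapping, so leaving out a library could hardly change their direction. None of them passed in the reported fit, so keeping the side means staying without a call. No paired analysis was possible because the labels give no shared replicate numbers. Of the genes under 10 CPM, 219 had an interval within 2-fold. Over all levels, the 7050 genes with such an interval became 5053 to 6065 with libraries left out.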

Other observations

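Hemoglobin transcripts, which come from red blood cells, varied between libraries of 1 genotype. Hba-a1 was at 309, 456 and 30.1 CPM in wild type and at 76.1, 40.03 and 164 CPM in mSOD, and Hbb-bs at 128, 232 and 19.2 CPM against 34.0, 24.2 and 62.9 CPM. Aldh1a3, an enzyme of retinoic acid synthesis, was at 42.2, 15.3 and 34.8 CPM in wild type and at 5.97, 9.39 and 3.08 CPM in mSOD, without overlap (log2 change -2.33, SE 0.69, unadjusted p 0.00178, adjusted p 1, edgeR). It was chosen after its values were seen.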
